A study of Homo sapiens and Mus musculus with 19 samples.

Results

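A set of 794 CCGG sites carried 5-methylcytosine (5mC) in the liver cancer line HepG2 and were unmethylated in the embryonic stem cell line H1ES. They were chosen from the values themselves. An autosomal site was judged where the 2 libraries of 1000 HepG2 cells together held at least 10 tags and the 2 libraries of 1000 H1ES cells together held at least 10. A judged site entered the set where at least 80% of the HepG2 tags were 5mC and at least 80% of the H1ES tags were unmethylated. This took 794 of 318248 judged sites, or 0.249%, out of 2211146 autosomal sites listed in the human tables. The opposite pattern, unmethylated in HepG2 and methylated in H1ES, was met by 69878 sites, or 22% of those judged. The shares of the 1000-cell libraries at the 794 sites are therefore a description of the choice and were not tested.

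The study read 3 states of cytosine at CCGG sites with sequencing tags that were added in turn: a tag for unmethylated DNA after cutting with HpaII, and separate tags for 5mC and 5-hydroxymethylcytosine (5hmC). HepG2, labelled as a liver cell line from hepatocellular carcinoma, gave 2 libraries of 1000 cells and 5 of single cells. H1ES, labelled as an embryonic stem (ES) cell line, gave the same numbers. The labels name no treatment, passage or culture for either line, so the spread between libraries may be technical. Per library, 526207 to 5977422 tags were counted in HepG2 and 757767 to 6644517 in H1ES. The deepest single cells were HepG2 cells 3 and 5, with 2455908 and 2434482 tags, while HepG2 cells 1, 2 and 4 held at most 611318.

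Methylation of cytosine in CpG dinucleotides is copied at each division by maintenance methyltransferases, and most CpG sites of human DNA carry it. Clusters of CpG sites, called CpG islands, usually stay free of it, at the promoters of widely used genes as well as across developmental regulators that Polycomb complexes keep silent in embryonic stem cells. In cancers, many of the islands at such regulators are known to become methylated, while large parts of the rest of the genome lose the mark.

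Over all autosomal tags, 5mC made up 60.6% and 61.7% for 1000 HepG2 cells and 93.6% and 94.2% for 1000 H1ES cells. Within 1000 bp of the listed starts of hepatocyte genes, 80% and 79.7% of the HepG2 tags and 19.7% and 21.5% of the H1ES tags were unmethylated. For pluripotency genes these shares were 27.7% and 30.6% in HepG2 and 66.8% and 69.6% in H1ES. HepG2 was thus the less methylated line at the hepatocyte genes, and H1ES at the pluripotency genes. The values rest on 20 hepatocyte genes, with 237 to 340 tags per library, and 13 pluripotency genes, with 135 to 193. Both lists were chosen with earlier results of these data known, so the values are a description and were not tested.

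Some of the sites lay next to gene starts. A window of 300 bases, from 250 before a start to 50 after it, held one of the 794 sites at 50 starts of 48 genes. These windows had a median of 20.5 CpG and 63.8% GC. Those with a site unmethylated in both lines, 1093 of them, had 27 CpG and 65.7% GC. The 2437 windows with any judged site, which like these must hold a CCGG, had 18 CpG and 62% GC, and the 33558 windows of all starts had 14 CpG and 58.7% GC. The letters CCGG, which read the same on both strands, occurred in 63.1% of all windows. The 5 windows shown here were picked after their values were seen. They span the range of CpG content in windows of known regulators, of a metabolic gene and of a zinc finger gene. Each is given 5′ to 3′ on the strand of the gene, with the methylated site in capitals, from RefSeq on GRCh38.p14.
ESRRB, chr14:76310527-76310826, plus strand: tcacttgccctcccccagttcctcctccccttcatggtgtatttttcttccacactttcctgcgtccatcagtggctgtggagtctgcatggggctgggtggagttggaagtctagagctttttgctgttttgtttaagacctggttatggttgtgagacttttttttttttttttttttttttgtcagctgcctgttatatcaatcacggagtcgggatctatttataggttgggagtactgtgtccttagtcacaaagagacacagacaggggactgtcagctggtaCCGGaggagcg
PAX6, chr11:31800612-31800911, minus strand: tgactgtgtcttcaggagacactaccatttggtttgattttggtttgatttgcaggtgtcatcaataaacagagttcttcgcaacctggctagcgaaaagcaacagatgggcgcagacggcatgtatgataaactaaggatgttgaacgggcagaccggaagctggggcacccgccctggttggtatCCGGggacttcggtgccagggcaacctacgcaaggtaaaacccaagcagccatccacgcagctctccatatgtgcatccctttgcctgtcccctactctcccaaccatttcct
PAX8, chr2:113278872-113279171, minus strand: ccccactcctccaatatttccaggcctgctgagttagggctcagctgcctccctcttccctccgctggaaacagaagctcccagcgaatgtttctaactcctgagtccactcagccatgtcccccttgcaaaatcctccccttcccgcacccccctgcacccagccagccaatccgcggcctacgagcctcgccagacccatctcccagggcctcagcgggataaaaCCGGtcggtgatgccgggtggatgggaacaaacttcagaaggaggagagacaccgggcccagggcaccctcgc
BCAT1, chr12:24902851-24903150, minus strand: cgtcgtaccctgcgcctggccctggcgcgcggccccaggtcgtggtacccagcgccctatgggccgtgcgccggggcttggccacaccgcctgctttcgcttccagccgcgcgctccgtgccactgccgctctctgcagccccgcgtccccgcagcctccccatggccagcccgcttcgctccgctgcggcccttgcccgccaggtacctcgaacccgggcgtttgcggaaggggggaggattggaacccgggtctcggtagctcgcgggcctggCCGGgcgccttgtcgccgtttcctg
ZNF586, chr19:57769426-57769725, plus strand: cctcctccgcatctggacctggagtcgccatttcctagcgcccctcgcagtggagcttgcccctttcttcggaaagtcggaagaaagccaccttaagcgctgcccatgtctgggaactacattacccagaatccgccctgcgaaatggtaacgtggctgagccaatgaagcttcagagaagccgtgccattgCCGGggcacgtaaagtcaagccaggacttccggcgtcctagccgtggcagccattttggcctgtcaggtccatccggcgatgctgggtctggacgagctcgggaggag

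The ESRRB window held 5 CpG, the fewest of these 5, and its site at position 76310817, 40 bases after the start, is the only CCGG in it. ESRRB encodes an orphan nuclear receptor of the pluripotency network. All of the 3 and 10 tags of HepG2 replicates 1 and 2 were 5mC there, whereas 90.9% of 11 tags of H1ES replicate 1 were unmethylated and the 1 tag of H1ES replicate 2 was 5mC. The free state in H1ES therefore rested on replicate 1. Single cells gave 13 5mC tags of 13 in HepG2 and 4 unmethylated tags of 5 in H1ES. Of the 32 judged sites in ESRRB or within 1000 bp of it, only this 1 was of the set. The opposite pattern, unmethylated in HepG2 and methylated in H1ES, was met by 13 of them.

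PAX6 and PAX8 encode paired-box transcription factors. PAX6 acts in the eye, brain and pancreas, and PAX8 in the thyroid and kidney. The PAX6 window lies inside the gene, at an internal start, with 11 CpG and its site 61 bases before that start. HepG2 was fully 5mC there over 5 and 7 tags, and H1ES was 83.3% unmethylated over 6 tags and 80% over 5. The PAX8 window held 13 CpG and its site was 21 bases before the start. HepG2 was fully 5mC at it over 8 and 5 tags, and H1ES fully unmethylated over 7 and 9.

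BCAT1, which encodes the cytosolic branched-chain amino acid transaminase, had the densest window of the 5, with 38 CpG and 74.3% GC. It also lies inside its gene, and its site, 27 bases after that internal start, was 5mC in all 5 and 7 HepG2 tags and unmethylated in all 8 and 5 H1ES tags. ZNF586, one of the zinc finger genes of chromosome 19, had 20 CpG in its window. All of its 5 and 7 HepG2 tags were 5mC, and 66.7% of 6 and 100% of 4 H1ES tags were unmethylated.

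Across the 794 sites together, 5mC made up 95.4% of 6459 tags and 94.9% of 5626 tags in the HepG2 libraries of 1000 cells. The unmethylated share was 91.5% of 6789 tags and 89.8% of 4496 tags in those of H1ES. A site held a median of 14 tags in HepG2, between 10 and 58, and of 13 in H1ES, between 10 and 36. All HepG2 tags were 5mC at 441 sites, all H1ES tags were unmethylated at 205, and both held at 130. Each of the 4 libraries alone reached 80% at 499 sites, 62.8% of the set. A judged site that does so also meets the pooled rule. These 499 are therefore all such sites among those judged (0.157%), and that share is no separate background. With the minimum of 10 tags per line kept, 151 sites met the rule without HepG2 replicate 1 and 215 without replicate 2, and 63 without H1ES replicate 1 and 268 without replicate 2.

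At this depth single sites are known only roughly. The lower bound of the exact Clopper-Pearson interval (95%, counting error only) lay above 50% at 758 sites for 5mC in HepG2, at 710 for the unmethylated share in H1ES, and at 677 for both. The intervals use the same tags that chose the sites, so these counts describe the choice and are no separate support for it. The sites nearest to either limit inside it were at 80%. Just outside, the 5 nearest sites had 78.6% to 78.9% 5mC in HepG2, and the 5 nearest in H1ES had 78.9% to 79.3% unmethylated tags. A 5hmC tag occurred in H1ES at 90 of the 794 sites. The 5hmC share over all of them was 0.217% and 0.373% in HepG2 and 0.899% and 0.912% in H1ES. At sites unmethylated in both lines it was 0.0202% and 0.0358% in HepG2 and 0.425% and 0.518% in H1ES. Over all autosomal tags it was 0.221% and 0.277% in HepG2 and 1.69% and 1.52% in H1ES. The choice limits the 5hmC share in both sets, and the differences were not tested.

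The share in libraries that did not choose the sites was read by choosing on replicates 1 alone. This gave 89 sites, 76 of them among the 794. At these, HepG2 replicate 2 had 94.0% 5mC (92.2% to 95.5%, 855 tags) and H1ES replicate 2 had 86.8% unmethylated tags (83.9% to 89.3%, 637 tags). In replicates 1, which chose them, 5mC was 95.6% in HepG2 and the unmethylated share 91.3% in H1ES.

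**Figure D1:**
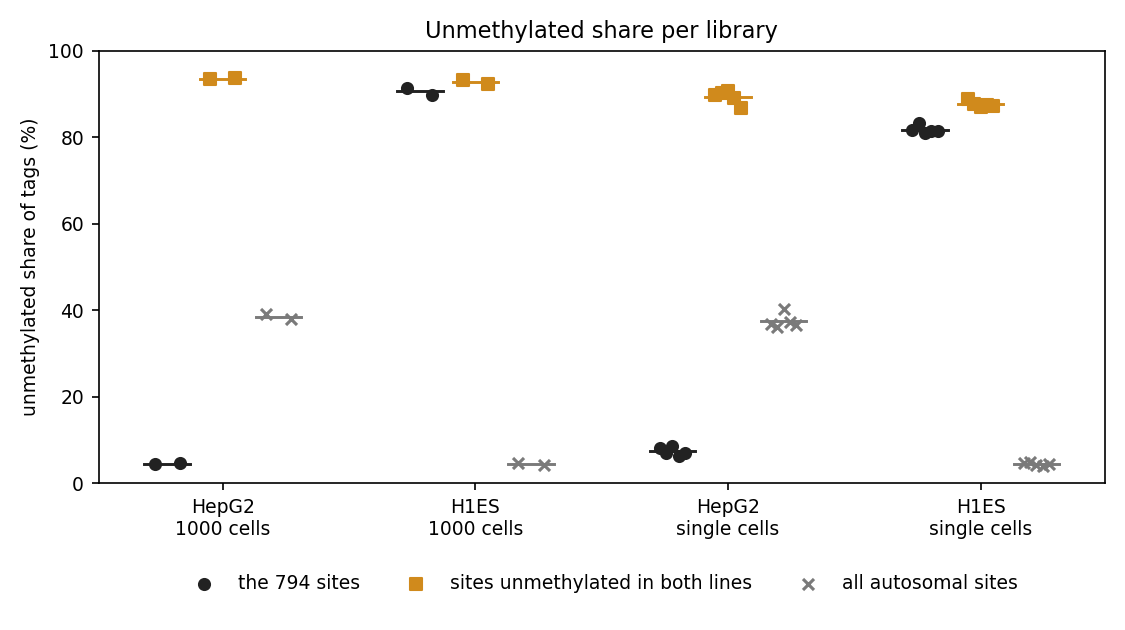
Unmethylated share of tags in each library (y axis, percent) for the 4 groups of libraries (x axis). Circles are the 794 sites, squares the sites unmethylated in both lines and crosses all autosomal sites, with bars at group means. At the 794 sites single HepG2 cells had a mean of 7.47% and single H1ES cells 81.8%.

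Single cells, which played no part in the choice, showed the same contrast. The 5mC share at the 794 sites was 91.2%, 91.7%, 90.7%, 93.4% and 92.5% in HepG2 cells 1 to 5, a mean of 91.9% ± 1.08 (SD, n = 5). Their genome-wide 5mC share was 62.2% ± 1.65. The unmethylated share in H1ES cells 1 to 5 was 81.6%, 83.3%, 81.0%, 81.5% and 81.4%, a mean of 81.8% ± 0.875 (SD, n = 5), where genome-wide it was 4.51% ± 0.354. Every HepG2 cell was at or below 8.72% unmethylated tags at these sites and every H1ES cell at or above 81.0%. The groups did not overlap, and they were not tested, as each is a library of 1 cell and the labels do not tie cells to cultures. Genome-wide they did not overlap either, in the opposite order. There, HepG2 cells had 36.2% to 40.4% unmethylated tags and H1ES cells 4.12% to 4.91%.

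The plot of unmethylated shares per library sets these values beside the 5095 sites unmethylated in both lines. There, the unmethylated share was 89.3% ± 1.56 in single HepG2 cells and 87.6% ± 0.723 in single H1ES cells. In each of the 5 H1ES cells the share was lower at the 794 sites than at these, a difference that was not tested. Over single H1ES cells the 5mC share at the 794 sites was 16.7% ± 0.606, against 8.45% ± 1.14 (SD, n = 2) in the libraries of 1000 cells that chose them.

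Site by site, 791 of the 794 sites had a tag in some HepG2 cell and 771 in some H1ES cell. A HepG2 cell covered 318 to 715 of them and an H1ES cell 378 to 591. In HepG2, a cell held at least 2 tags at a site in 1402 cases, of which 1129 (80.5%) were all 5mC, 261 (18.6%) mixed and 12 without 5mC. In H1ES there were 870 such cases, of which 564 (64.8%) were all unmethylated, 263 (30.2%) mixed and 43 (4.94%) without an unmethylated tag. Mixed cases were more frequent in H1ES than in HepG2, a difference that was not tested. The cases pool cells of unequal depth. HepG2 cells 3 and 5 held 1973 and 2119 tags at these sites, and the other HepG2 cells 419 to 540. Such cases were not counted at other classes of sites, so the mixed share cannot be called a trait of this set.

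With at least 5 tags over the 5 cells of a line, 497 of 569 sites (87.3%) were at least 80% 5mC in HepG2, where 51.4% of judged sites were, and 5 were below 50%. In H1ES, 227 of 342 sites (66.4%) were at least 80% unmethylated, where 1.5% of judged sites were, and 21 were below 50%. For sites unmethylated in both lines this share was 79.8% of 2134 in H1ES. With 5 tags in each line, 152 of 276 sites (55.1%) met both limits, compared with 0.172% of judged sites.

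The 794 sites were a small share of what H1ES keeps unmethylated. Of 7117 judged sites unmethylated in H1ES, 794 (11.2%) were methylated in HepG2, 5095 (71.6%) were unmethylated in HepG2 too and 1228 (17.3%) lay between. This share differed with distance from gene starts. Within 1 kb of a listed start, 156 of 3332 sites (4.68%) were methylated in HepG2. At 1 to 5 kb it was 140 of 735 (19.05%), at 5 to 50 kb 288 of 1592 (18.1%), and beyond 50 kb 185 of 1263 (14.6%). The class next to starts thus had the lowest share of the 4. Distances to the nearest end of a protein-coding gene, which were known for every gene, gave 5.24%, 18.6%, 17.1% and 15.1% for the same ranges. Starts of 15101 of 19126 autosomal protein-coding genes were used, and chromosome 8 was left out of distances to starts.

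**Figure D2:**
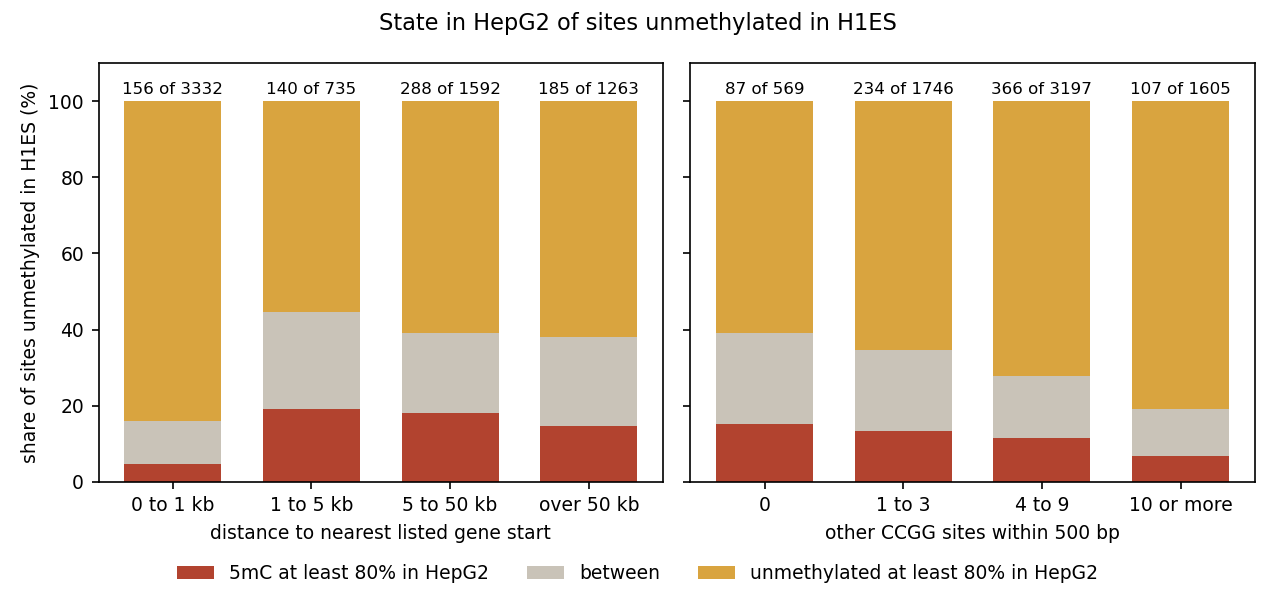
State in HepG2 of the 7117 sites unmethylated in H1ES (y axis, percent of sites), by distance to the nearest listed gene start (left) and by the number of other CCGG sites within 500 bp (right). Numbers above the bars count the sites methylated in HepG2 among all of that class. The methylated share is 4.68% within 1 kb of a start and at least 14.6% farther out.

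The 794 sites thus lay farther from starts than the other sites free in H1ES. Their median distance was 10484 bp, that of the 5095 sites unmethylated in both lines 663 bp, and that of all judged sites 41850.5 bp. Within 1000 bp of a listed start lay 156 of 769 of them (20.3%), compared with 56.5% of the sites unmethylated in both lines and 2.76% of judged sites. In a protein-coding gene or within 1000 bp of it lay 573 of the 794 (72.2%). This share was 80.9% for sites unmethylated in both lines, 71.7% for sites methylated in both lines and 56.7% for judged sites. For the opposite pattern it was 37.2%. Exons, introns and UTRs were not assigned, because the gene table used here gives gene ends only.

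Crowding, the number of other CCGG sites within 500 bp, is a local measure of CpG island character. The 794 sites had a median of 4 neighbours, sites unmethylated in both lines 6 and judged sites 1. At least 10 neighbours surrounded 107 of the 794 (13.5%), compared with 25.5% of sites unmethylated in both lines and 0.877% of judged sites. No neighbour was present for 87 of the 794 (10.96%), for 6.81% of sites unmethylated in both lines and for 40.6% of judged sites. The set was therefore less crowded than sites unmethylated in both lines and more crowded than judged sites, without a test. Without H1ES replicate 2, whose omission leaves 268 sites, the share with at least 10 neighbours was 8.58%. Among sites unmethylated in H1ES, the share methylated in HepG2 was 15.3% without neighbours, 13.4% with 1 to 3, 11.4% with 4 to 9 and 6.67% with 10 or more. Split by distance from starts, this fall was not steady. In the same order of crowding, the shares were 16.4%, 19.1%, 21.7% and 13.01% at 1 to 5 kb. They were 15.7%, 16.9%, 20.6% and 15.9% at 5 to 50 kb, and 13.9%, 17.02%, 13.9% and 11.6% beyond 50 kb. Within 1 kb they were 10.9%, 5.11%, 5.16% and 3.35%. Of the 1605 sites with 10 or more neighbours, 1044 lay within 1 kb of a start. Crowded sites were rarely judged at all: 1.22% of listed sites with 10 or more neighbours met the tag minimum, and 21.1% of isolated ones. How that bears on the shares was not tested.

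Neighbouring sites too thinly tagged to be judged were used to see how far the pattern extends, as the choice did not use them. Within 500 bp of the 794 sites were 3570 such sites. Of their tags, HepG2 replicates 1 and 2 had 22.6% and 22.1% unmethylated, and H1ES replicates 74.9% and 75.8%. The means were 22.4% ± 0.409 in HepG2 and 75.4% ± 0.619 in H1ES (SD, n = 2 each), a difference of -53.0 percentage points, HepG2 minus H1ES, far larger than the spread between replicates. The libraries of the lines did not overlap. The two-sided exact permutation test gave p = 0.333, the smallest value that 6 splits of 2 against 2 libraries allow, so this design cannot reach 0.05. Over all autosomal sites the same libraries did not overlap either, but in the opposite order. The mean unmethylated share there was 38.6% in HepG2 and 4.49% in H1ES.

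Close to the 794 sites, at 1 to 100 bp, thinly tagged sites were 10.6% and 7.22% unmethylated in HepG2 and 80.1% and 77.3% in H1ES. At 501 to 1000 bp the shares were 31.2% and 29.7% in HepG2 and 57.1% and 54.0% in H1ES, and at 1001 to 2000 bp 36.5% and 33.8% in HepG2 and 39.6% and 39.8% in H1ES. Beyond 2 kb the order was turned round: at 2001 to 5000 bp HepG2 had 36.9% and 34.7%, and H1ES 25.4% and 23.7%. Farther out the lines stood in the order of their genome-wide shares.

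Around sites unmethylated in both lines, H1ES reached lower values sooner. Its unmethylated share there was 26.1% and 25.3% at 1001 to 2000 bp and 10.9% and 10.2% at 2001 to 5000 bp. At 5001 to 10000 bp it was 17.6% and 17.6% around the 794 sites and 8.43% and 7.69% around sites unmethylated in both lines. The free stretch of H1ES around the 794 sites was wider by these values, a difference that was not tested.

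**Figure D3:**
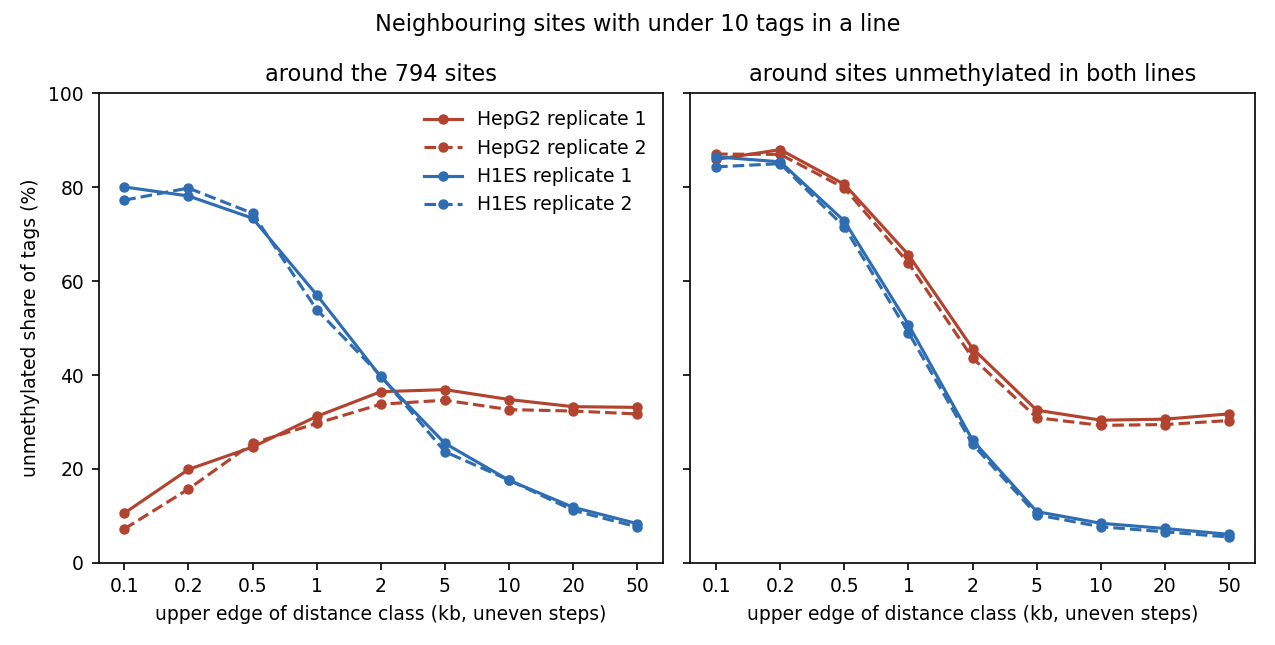
Unmethylated share of tags (y axis, percent) at neighbouring sites with under 10 tags in a line, by distance class (x axis, upper edge in kb, uneven steps), around the 794 sites (left) and around sites unmethylated in both lines (right). Each line is 1 library of 1000 cells. Around the 794 sites the HepG2 and H1ES lines cross between 2 and 5 kb, and HepG2 is at 10.6% and 7.22% in the nearest class.

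On a scale of 100 kb, 5mC around the 794 sites was within 3 percentage points of that around sites unmethylated in both lines. In bins of that size, with sites within 2 kb of the set left out, the median 5mC share was 65.9% and 66.8% in HepG2 and 90.8% and 91.7% in H1ES. Around sites unmethylated in both lines it was 67.8% and 68.9% in HepG2 and 88.9% and 89.7% in H1ES, and around all judged sites 63.7% and 64.9% in HepG2 and 94.8% and 95.3% in H1ES. The 5mC share of the bin was under 50% for 24.5% and 22.4% of the 794 sites in HepG2, and for 1.51% and 1.01% in H1ES. For judged sites it was 33.3% and 31.9% in HepG2, and for sites unmethylated in both lines 21.8% and 20.5%, so the set lay between these in HepG2.

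All 22 autosomes held some of the sites. Chromosome 2 had 96, chromosome 17 had 67, chromosome 1 had 64 and chromosome 6 had 56. These were 11.9%, 11.5%, 10.3% and 9.66% of their sites unmethylated in H1ES, near the 11.2% of all autosomes. As a share of the sites unmethylated in H1ES, chromosome 20 was lowest with 7.61% (27 of 355) and chromosome 21 highest with 20.8% (11 of 53). The tag minimum is reached more easily where a line has more tags. Over judged sites, HepG2 tags per H1ES tag were 1.47 on chromosome 20, 1.28 on 16, 1.23 on 14 and 1.16 on 2. They were 1.14 on 17, 1.13 on 6 and at lowest 0.854 on 4. The part of these ratios in the counts per chromosome was not tested.

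Most of the sites stood alone. Chained by gaps of at most 1000 bp they formed 739 groups, of which 691 had 1 site, 41 had 2 and 7 had 3. The widest group of 3 spanned chr16:51153980-51154835, 1646 bp from SALL1, a zinc finger regulator of limb and kidney development. Over its 3 sites 100% of 29 and 95.5% of 22 HepG2 tags were 5mC, and 94.7% of 19 and 89.5% of 19 H1ES tags were unmethylated. Another group of 3, chr14:20625842-20626206, lay 14854 bp from the nearest protein-coding gene, the olfactory receptor gene OR6S1. It was 100% 5mC over 32 and 29 HepG2 tags and 96% and 85% unmethylated over 25 and 20 H1ES tags. The other groups of 3 were at ITPKA, FZD7, NFIX, NR2F1 and OLIG3. The widest pairs were at CDKN1C, VAX2 and FOXD4L1, with spans of 993, 884 and 830 bp. VAX2, a homeobox factor of the eye, was fully 5mC over 11 and 15 HepG2 tags and 95.7% and 88.9% unmethylated over 23 and 9 H1ES tags.

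Of 16966 protein-coding genes with a judged site in the gene or within 1000 bp, 533 (3.14%) held one of the 794 sites. Among the 4867 genes with a site unmethylated in H1ES this was 11%. There were 12 genes with 3 sites, 64 with 2 and 457 with 1. The genes are ranked here by that number and then by the share of their judged sites, and those at the top are described by role.

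Of these genes, TBX3, TFAP2A, TBX4, PITX1, CDX2 and GATA2 are on the list of developmental regulators counted further on. NR2F1, an orphan nuclear receptor of neural development, held 3 of 4 judged sites, 1 in the gene and 2 past its end, 6828 to 8229 bp from the nearest of its listed starts, which lies inside the gene. HepG2 had 100% and 95.8% 5mC there, and H1ES 92.7% and 87.5% unmethylated tags.

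OLIG3, a basic helix-loop-helix factor of the dorsal neural tube, held 3 sites of 4 judged, 728 to 1210 bp after its start. Its HepG2 libraries differed more, with 84% of 25 and 95.5% of 22 tags being 5mC, while H1ES was 95.2% and 94.4% unmethylated. TBX3 and TBX4 are T-box factors of limb development. TBX3 held 3 sites of 5 judged, with 100% and 95.8% 5mC in HepG2 and 92.9% and 88.2% unmethylated tags in H1ES. TBX4 held 3 of 16, with 100% and 94.6% 5mC in HepG2 and 88.9% and 78.6% unmethylated tags in H1ES. TFAP2A, a factor of neural crest and epidermis, had 9 sites unmethylated in H1ES, of which 3 were methylated in HepG2 (95.8% and 80% 5mC) and 3 unmethylated in both lines.

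Of the long genes, NFIX, a nuclear factor I gene, held 3 adjacent sites of 37 judged, 13135 to 13715 bp from the nearest of its listed starts. They were 100% 5mC in both HepG2 libraries and 88.9% and 100% unmethylated in H1ES. NGEF, a guanine nucleotide exchange factor of neurons, held 3 of 56 and was 100% 5mC in both HepG2 libraries, against 91.7% and 88.9% unmethylated tags in H1ES. TSPEAR held 3 of 73, with 88.9% and 90.9% 5mC in HepG2 and 85.7% and 87.5% unmethylated tags in H1ES. ZFHX3, a homeobox and zinc finger gene, held 3 of 231. At these 3 ZFHX3 sites, HepG2 was 100% and 96.7% 5mC and H1ES 86.7% and 100% unmethylated. The opposite pattern, unmethylated in HepG2 and methylated in H1ES, was met by 53 judged sites of ZFHX3 and 9 of TSPEAR. NGEF had 2 such sites and NFIX none, while 22% of all judged sites had that pattern.

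FZD7, FZD1 and FZD2 encode Frizzled receptors of Wnt ligands and are placed side by side here after their names were seen. FZD7 held 3 sites within 620 bp and was 100% 5mC over 36 and 20 HepG2 tags, with 88.4% of 43 and 91.7% of 12 H1ES tags unmethylated. FZD1 held 2 of 2 judged sites, fully 5mC over 20 and 20 HepG2 tags and 92.3% and 80% unmethylated in H1ES. FZD2 held 2 of 4, fully 5mC in both HepG2 libraries and 90.9% and 88.9% unmethylated in H1ES.

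Among the genes with 2 sites, PITX1, a homeobox factor of the hind limb, NKX2-4, SP9 and FOXD4L1 each had both of their judged sites in the set. FOXD4L1 has near-identical copies in the genome, so its tags may be shared between them. At PITX1 all 22 and 22 HepG2 tags were 5mC, and 93.8% of 16 and 92.9% of 14 H1ES tags were unmethylated. At SP9 HepG2 had 81.8% and 94.4% 5mC, and H1ES 100% and 88.9% unmethylated tags. CDX2, a factor of trophoblast and intestine, was 92.3% and 80% 5mC in HepG2 and 92.3% and 85.7% unmethylated in H1ES. GATA2, of blood formation, was 100% 5mC in both HepG2 libraries and 92.9% and 90% unmethylated in H1ES.

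CLDN7, a claudin of epithelial tight junctions, had 2 of 2 judged sites in the set, fully 5mC over 16 and 15 HepG2 tags and 92.9% and 100% unmethylated in H1ES. DUSP2, a phosphatase acting on MAP kinases, had 100% and 80% 5mC in HepG2 over 11 and 10 tags and no methylated tag among 15 and 10 in H1ES. CDKN1C, the imprinted inhibitor of cyclin-dependent kinases, had 2 of 3 judged sites, which were the most crowded of those named, with a median of 20 neighbours. It was fully 5mC over 26 and 22 HepG2 tags and 90% and 100% unmethylated over 20 and 7 H1ES tags. ITPKA, an inositol trisphosphate kinase, PRRT1 and BCL3, a regulator of NF-kappaB, completed those at the top, with 94.4% to 100% 5mC in HepG2 and 87.5% to 100% unmethylated tags in H1ES.

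**Figure D4:**
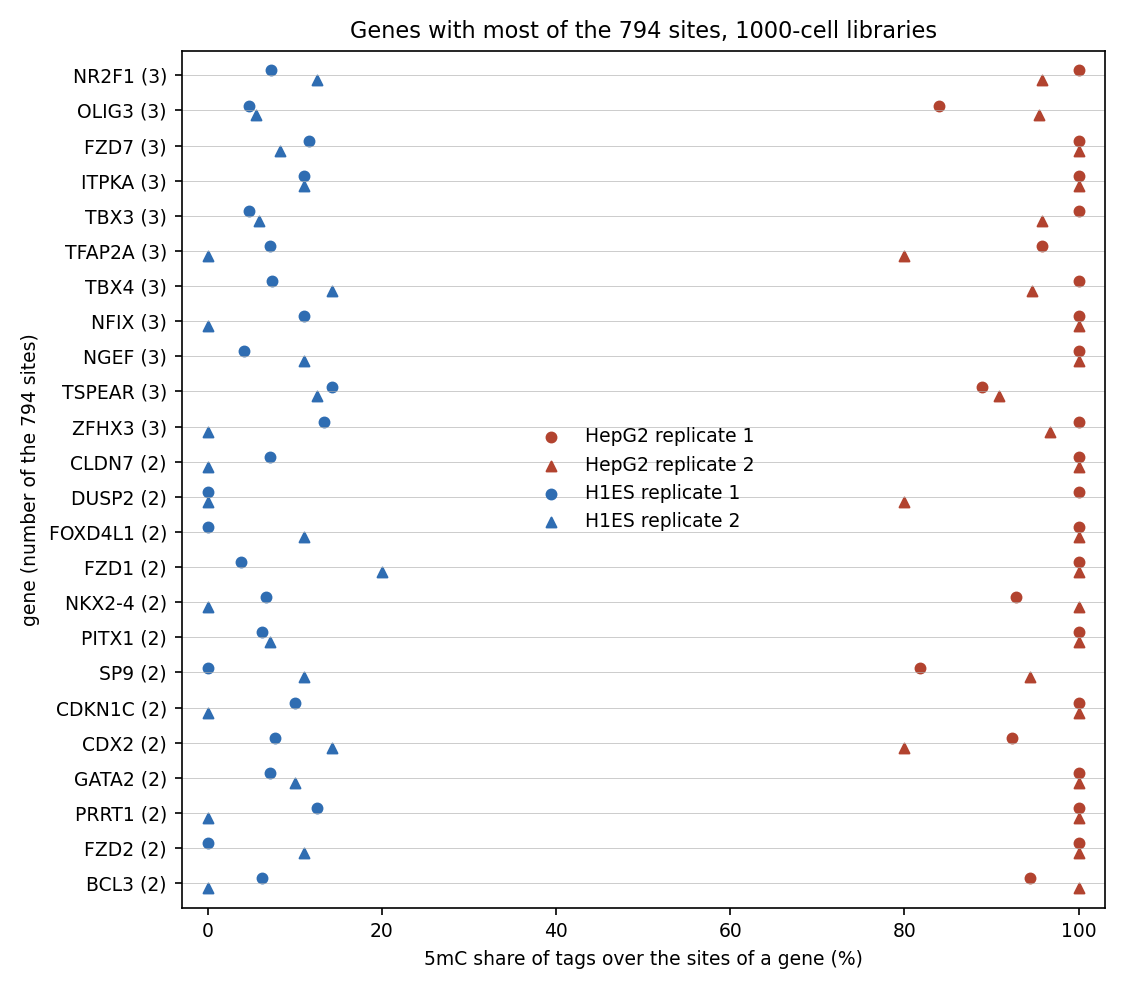
5mC share of tags (x axis, percent) over the sites of the set in each of the highest ranked genes described (y axis, number of sites in brackets) in the 4 libraries of 1000 cells. Circles are replicates 1 and triangles replicates 2. HepG2 shares lie between 80% and 100% and H1ES shares between 0% and 20% for the genes drawn, where the choice of sites sets limits to the pooled tags of a line but not to each library.

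Among the most tagged sites was one in PAX9, at position 36661542 of chromosome 14, where 84.5% of 58 HepG2 tags were 5mC and 89.5% of 19 H1ES tags were unmethylated. Position 30206029 of chromosome 16, 1719 bp from SULT1A3, had 80.4% 5mC over 51 HepG2 tags and no methylated tag among 30 in H1ES. SULT1A3 has a near-identical copy close by, so the tags there may be shared between copies. Position 44932833 of chromosome 2, 8869 bp from SIX3, had 80.8% 5mC over 26 HepG2 tags and 84.4% unmethylated tags over 32 in H1ES. The site in SHISA9, at position 12902762 of chromosome 16, had 97.2% 5mC over 36 HepG2 tags and 100% unmethylated tags over 18 in H1ES.

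The gene lists were chosen with earlier results of these data known, so the counts of every list are a description and were not tested. Gene lists were counted among genes with at least 1 site unmethylated in H1ES, for which the count over all genes was 533 of 4867, or 11%. Of 67 such developmental regulators, 30 (44.8%) held one of the 794 sites. Counted by site, 45 of their 134 sites unmethylated in H1ES (33.6%) were methylated in HepG2 and 44 (32.8%) unmethylated in both lines, while over the sites of all genes these shares were 10.3% and 74.2%. These counts leave out sites methylated in H1ES. Of all 431 judged sites of the developmental regulators, 55 had the opposite pattern, unmethylated in HepG2 and methylated in H1ES. Over all genes it was 26020 of 180413. Beside those described, MEIS1, TBX2, PAX6 and PAX8 held 2 sites each. Single sites were held by the forkhead genes FOXA2 and FOXF1, the GATA genes GATA5 and GATA6, the Zic genes ZIC2 and ZIC4, the paired-box genes PAX2 and PAX9, and SOX1, OLIG2, IRX1, SHOX2, DLX5, EVX2, MSX1, SIX2, SIM1, NKX2-2 and TBX15. NR2F1, OLIG3, NFIX, NKX2-4 and SP9 are not on that list and were not added to it. With 1 library left out and the tag minimum kept, 9 of 14 regulators held a site without HepG2 replicate 1, 7 of 22 without HepG2 replicate 2, 3 of 6 without H1ES replicate 1 and 11 of 27 without H1ES replicate 2.

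The HOX clusters, which set position along the body axis, had 17 genes with a site unmethylated in H1ES, of which 8 held a site of the set. These 8 rested on 6 of 25 sites (24%), because HOXC4, HOXC5 and HOXC6 overlap. The site at HOXB2 was 84.6% of 13 and 90% of 10 tags 5mC in HepG2 and 88.9% of 9 and 100% of 5 tags unmethylated in H1ES. At HOXC10 HepG2 was fully 5mC over 7 and 8 tags, and H1ES 100% and 85.7% unmethylated over 10 and 7. The shared site of HOXC5 and HOXC6 was 77.8% and 85.7% 5mC in HepG2 and 83.3% and 100% unmethylated in H1ES. With limits of 90%, 1 of 11 HOX genes held a site. Without HepG2 replicate 1 it was 2 of 5, without HepG2 replicate 2 it was 1 of 8, without H1ES replicate 1 none of 1, and without H1ES replicate 2 it was 1 of 6.

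Pluripotency genes, whose products keep embryonic stem cells undifferentiated, held sites of the set in 8 of 12 cases, with 9 of 16 sites (56.3%). POU5F1, NANOG and SOX2, the core factors, each held 1. POU5F1 was fully 5mC over 7 and 8 HepG2 tags and 100% and 85.7% unmethylated over 9 and 7 H1ES tags. NANOG had 100% and 80% 5mC over 5 tags each in HepG2 and 100% and 83.3% unmethylated tags over 6 each in H1ES, at a site 299 bp from its start. SOX2 had 85.7% of 7 and 100% of 6 HepG2 tags as 5mC, and all 7 and 7 H1ES tags unmethylated. L1TD1, an RNA-binding protein gene of stem cells, held 2 sites with 91.3% and 94.1% 5mC in HepG2 and no methylated tag among 21 and 18 in H1ES. ZFP42, NODAL, VRTN and DNMT3B held 1 each. The 5mC share in single HepG2 cells at DNMT3B, which encodes a de novo methyltransferase, was 17 of 17 tags, but in single H1ES cells only 1 of 5 tags was unmethylated. Single H1ES cells also had just 1 unmethylated tag of 3 at NANOG, 2 of 4 at SOX2 and 6 of 10 at ZFP42. At POU5F1 the 1 tag was unmethylated, as were all 5 at L1TD1, 2 at NODAL and 1 at VRTN. POU5F1, NANOG and SOX2 kept their site at limits of 90% but fell below the minimum of 10 tags whenever 1 of the 4 libraries was left out. Of pluripotency genes, 2 of 3 held a site without HepG2 replicate 1, HepG2 replicate 2 or H1ES replicate 2, and 1 of 2 without H1ES replicate 1. Among all 118 judged sites of the pluripotency list, 9 were of the set and 13 had the opposite pattern.

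**Figure D5:**
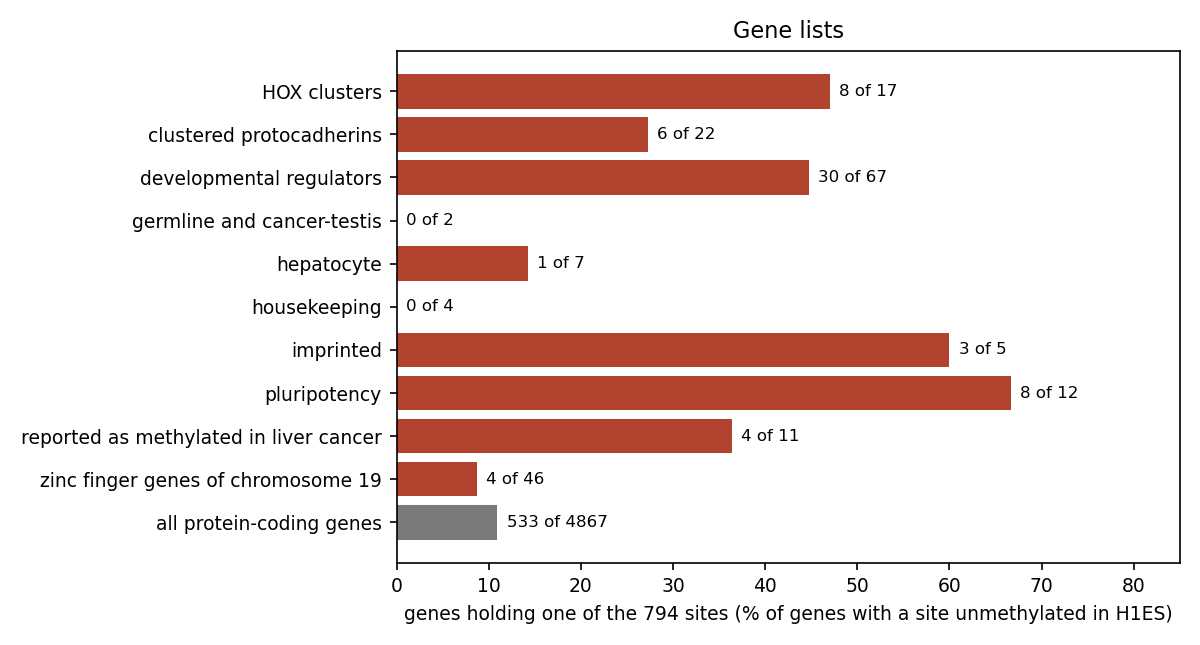
Share of genes holding one of the 794 sites (x axis, percent of the genes with a site unmethylated in H1ES) for each gene list and for all protein-coding genes (grey, bottom). Labels give the counts, and the lists were chosen with earlier results of these data known. Pluripotency genes reach 8 of 12, developmental regulators 30 of 67 and HOX genes 8 of 17, while all genes are at 533 of 4867.

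The remaining lists were small or near the share of all genes. Of the list of genes that liver cancer is known to methylate, 4 of 11 held a site. Those were CDKN1C, SFRP2, a secreted Wnt antagonist, CDKN2A, which encodes the cell cycle inhibitor p16, and SOCS3, a suppressor of cytokine signalling. The single site at SFRP2 had only 3 tags in HepG2 replicate 1, all 5mC, and 71.4% of 7 in replicate 2, where H1ES was 100% of 13 and 85.7% of 7 unmethylated. The site at CDKN2A lay inside the gene, 6372 bp from the nearest of its listed starts and so not next to one. It was 100% and 80% 5mC in HepG2 and 91.7% and 80% unmethylated in H1ES. Of the 3 sites at CDKN2A that were unmethylated in H1ES, 1 was unmethylated in HepG2 too. Of the imprinted list 3 of 5 genes held a site, namely CDKN1C, PLAGL1, a zinc finger factor, and TP73, a relative of the tumour suppressor p53. PLAGL1 was 88.9% and 100% 5mC in HepG2 and 76.9% and 88.9% unmethylated in H1ES. TP73 was 100% 5mC in both HepG2 libraries and 80% and 83.3% unmethylated in H1ES.

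Zinc finger genes of chromosome 19 held sites in 4 of 46 cases (8.70%), at ZNF302, ZNF506, ZNF586 and ZNF875. All HepG2 tags at these 4 sites were 5mC, and 66.7% to 100% of the H1ES tags of a library were unmethylated. Of hepatocyte genes 1 of 7 did, FOXA2, which is also on the list of developmental regulators. Its site was 88.2% of 17 and 100% of 11 tags 5mC in HepG2. The 6 of 22 clustered protocadherins all shared 1 site, at position 140828024 of chromosome 5, since the alpha genes overlap. It was 100% 5mC over 5 and 7 HepG2 tags and 75% and 100% unmethylated over 8 and 9 H1ES tags. Of 2 germline genes and 4 housekeeping genes with a site unmethylated in H1ES, none held one.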

How the data were processed

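Per the labels' protocols, unmethylated CCGG sites received a tag after HpaII digestion, and 5hmC and 5mC sites after later digestions with MspI. The submitters' processing notes name Bowtie2 2.3.4.1, UMI-tools 0.5.4 and cutadapt 1.5 beside hg38, with no role stated for each. The authors deposited, for each CCGG site, 3 fraction values (the shares of unmethylated, 5mC and 5hmC tags) and 1 count (the tags of the 3 kinds). The tables have no header. The order of the 3 shares was told from their values, so every state named here rests on it. Fraction times count was whole within 0.00141 at every site, and tags were recovered that way. Positions were the second base of CCGG: all 68894 CCGG of the autosomal start windows were listed.

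Tags of a line were pooled for the choice of sites. The members and the gene lists were chosen with earlier results of these data known. Sites were joined to 19126 autosomal protein-coding genes (RefSeq, GRCh38.p14) with 1000 bp on each side, and start windows were taken from RefSeq on the same build. Named were the 25 genes with most sites, ties broken by share of judged sites, the 10 largest groups, the 5 most tagged sites, the 5 sites nearest to each limit on either side, and up to 4 genes of each list. The results of 1 gene are not reported here. Other names were chosen after their values were seen. Shares over classes of sites were set side by side without a test. The thinly tagged neighbours were compared by a two-sided exact permutation test over libraries. The choice of sites was checked on simulated data with 200 planted sites, all in Python 3.11.15 with NumPy 2.4.6, pandas 2.3.3, SciPy 1.17.1 and matplotlib 3.10.9. Intervals cover counting error only. Alternatives covered the tag minimum, the share limits, each library on its own or left out, 5hmC tags left out, chromosome X, and the sizes of flanks, windows and bins. Mouse libraries were not used here.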

Additional observations from a re-analysis of the deposited data

Results flagged for a closer look

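In 12 sets of 5 single cells, the highest and the lowest cell were compared with the rest, which by chance alone marks about 1 set in 20. Among the H1ES cells, cell 2 stood above the others in the unmethylated share at the 794 sites, with 83.3% where the other 4 cells lay between 81.0% and 81.6%. Its interval, 80.3% to 86.0%, covers the values of the other 4.

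Among the HepG2 cells, cell 4 stood apart in the 5hmC share at sites unmethylated in both lines. It had 0 5hmC tags of 3313, which allows a share of up to 0.0906% when the limit is set at 3 tags of the total, and the other 4 cells had 0.0316% to 0.0424%. That limit lies above all of the other values.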

How the results depend on the processing

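The number of sites followed the tag minimum and the limits: 2617 with at least 5 tags per line, 31 with at least 20, 1180 at 70%, 392 at 90%, 258 with each library past 80% on its own with 5 tags, 831 without 5hmC tags and 796 with chromosome X. Without 1 library it was 63 (H1ES replicate 1) to 268 (H1ES replicate 2), since the minimum of 10 tags per line was kept with fewer tags. The share in or near genes (72.2%) was 64.5% with at least 20 tags, 63.6% without flanks, 81.5% with 5000 bp and 61.9% to 72.8% without 1 library. The share with at least 10 neighbours (13.5%) was 6.45% with at least 20 tags, 0.756% in a window of 250 bp, 45.8% in 1000 bp and 8.58% to 13.95% without 1 library. The regional HepG2 5mC median (66.2%) was 64.9% with at least 5 tags, 60.6% with 20, 65.1% in bins of 10 kb and 63.6% to 68.6% without 1 library. The share of H1ES-unmethylated sites (11.2%) was 12.1% with at least 20 tags, 14.04% at 70%, 7.86% at 90% and 11.5% to 14.8% without 1 library.

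The mean in single HepG2 cells (91.9%) was 89.3% at 70%, 94.5% at 90% and 89.2% to 92.2% without 1 library or cell. In single H1ES cells (81.8%) it was 78.9% at 70%, 85.2% at 90%, 83.7% with each library on its own and 80.4% to 83.3% without 1 library or cell. For sites chosen on 1 library per line, HepG2 5mC in the other library (94.0%) was 90.6% with at least 5 tags, 80% with 20, 92.2% at 70% and 96.6% at 90%, and H1ES (86.8%) was 100% with at least 20 tags, 80.4% at 70% and 89.6% at 90%. Choosing on replicates 2, an alternative added after seeing the data, gave 21 sites with 88.1% in HepG2 and 88.3% in H1ES. Beyond the effect of fewer tags, the cause was not tested.

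The difference at thinly tagged neighbours (-53.0 points) kept its sign in all alternatives, from -39.98 in a window of 1000 bp to -63.5 in 200 bp, and from -51.9 to -62.7 without 1 library. With the replicate block it was -53.0 as well (exact p = 0.5, the smallest that 2 pairs allow). The replicates share only a number. Of 52 genes followed, 31 kept a site at 90%, 4 with at least 20 tags, and 4 to 23 without 1 library. Developmental regulators with a site were 31.8% to 66.3% of those with a site unmethylated in H1ES, and all genes 7.61% to 13.98%. HOX genes with a site numbered 8, but 1 at 90% and 0 to 2 without 1 library, and pluripotency genes 8, but 6 at 90% and 1 to 2 without 1 library. Depth limits single sites, most of which rest on few tags per library.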
